A study of Mus musculus with 8 samples.

Results

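The genes described here are the interleukins and interleukin receptors on the array, taken as every probe set whose only annotated gene symbol is Il followed directly by a digit. The receptor genes Il3ra, Il5ra, Il6ra, Il6st and Il7r were set aside and serve below as partner subunits. These probe sets gave 68 genes of the 18193 genes measured, of which 31 are named as receptors and the other 37 are ligands, antagonists, binding proteins or other genes with such a symbol. The groups were 4 arrays of L-GMPs, bone marrow cells sorted by flow cytometry from leukaemic mice with the genotype label HoxA9+Meis1 AML, and 4 arrays of GMPs sorted from the marrow of normal mice. GMP stands for granulocyte-macrophage progenitor. The labels call all 8 samples GMPs fractionated by sorting, give replicate letters A to D in each group, and name neither the promoter behind HoxA9 and Meis1, nor the age of the mice, nor whether a sample came from 1 mouse or from several, nor whether the L-GMPs came from a single leukaemia. P-values therefore cover only how far these samples spread, and that spread could be technical. Values are log2 intensities, and a difference is always L-GMP minus GMP on that scale.

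Interleukins are small secreted proteins through which blood and tissue cells signal to each other, and most act on receptors assembled from a ligand-specific chain and a chain shared by several cytokines. Receptors of the IL-1 family pass their signal through the adaptor MYD88 and IRAK kinases, those of the IL-17 family through the adaptor encoded by Traf3ip2, and most of the others through JAK kinases and STAT factors. In the marrow, several interleukins act on myeloid progenitors during infection and inflammation, and in human myeloid leukaemia the shared receptor chain IL1RAP is studied as a surface antigen of leukaemic stem cells.

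All 7 markers of the gate and of primary granules averaged above the upper quartile of every array (7.39 to 7.46) in both groups. Mpo, the main peroxidase of granules in these progenitors, averaged 13.2 in L-GMPs and 13.6 in GMPs, and Fcgr3, an antigen of the GMP gate, 10.7 in both. Of the 7, Kit, Mpo, Elane and Prtn3 were lower in L-GMPs (without Mpo after median centring) and none was higher. These calls are 57.1% of the list, against 12.1% of all genes. Of the label's own genes, Hoxa9 averaged 11.6 in L-GMPs and 6.79 in GMPs on one probe set, and 2.76 in L-GMPs and 9.42 in GMPs on its other. All 3 Meis1 probe sets were lower in L-GMPs, with changes of -3.05, -2.07 and -1.47. The Hoxa9 and Meis1 values thus do not check the labels fully. GMP replicate D stood apart in the Gapdh controls, where the 3' probe set exceeded that of the 5' end by 2.74, against 1.24 to 1.76 on the other 7 arrays. Counts are therefore also given without that array.

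Interleukin and receptor genes differed between the groups at 12 of 68 genes. Among them 4 were higher in L-GMPs (Il10rb, Il12a, Il15ra and Il17rd) and 8 were lower (Il15, Il1rl2, Il12rb2, Il6, Il22ra2, Il27ra, Il17rb and Il1rap). The test was limma with Benjamini-Hochberg adjustment over all 18193 genes at 0.05. These calls are 17.6% of the members, and the same test called 12.1% of all genes, 4.78% as higher and 7.27% as lower. Of the 31 receptors 3 were higher and 6 lower, which is 29%. A difference of at least 2-fold stood behind 7 of the 12 calls, which is 10.3% of the members, and 3.79% of all genes were called at that size. The median difference was 0.05 over the members and 0.01 over all genes. Centring each array on its median moved the median of all genes to 0.15 and gave 9 members higher and 7 lower (23.5% of members called, against 17% of all genes). Of all called genes 70.1% were then higher, against 39.7% as reported. Quantile normalization gave 6 members higher and 8 lower (20.6% called, against 13.9% of all genes). Without GMP replicate D there were 2 higher and 5 lower (10.3% called, against 7.83% of all genes). Without L-GMP replicate C there were 2 higher and 7 lower (13.2%, against 8.68% of all genes). Without a pair of arrays taken out at once (L-GMP replicate B with GMP replicate D, a setting chosen after seeing the data) there were 3 higher and 5 lower, which is 11.8%, against 8.56% of all genes. In 13 members the L-GMP and GMP arrays did not overlap at all, 19.1% of them, against 18.2% of all genes. Of the 105 probe sets of the members 6 were higher and 8 lower, 13.3%, when adjusted over all probe sets, of which 10.9% were called. The called genes Il12a, Il15, Il12rb2, Il6, Il22ra2, Il27ra and Il17rb have 1 probe set each, so no second probe set can check them. In these samples of many cells, fewer cells that express a gene and less RNA per cell cannot be told apart.

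**Figure D1:**
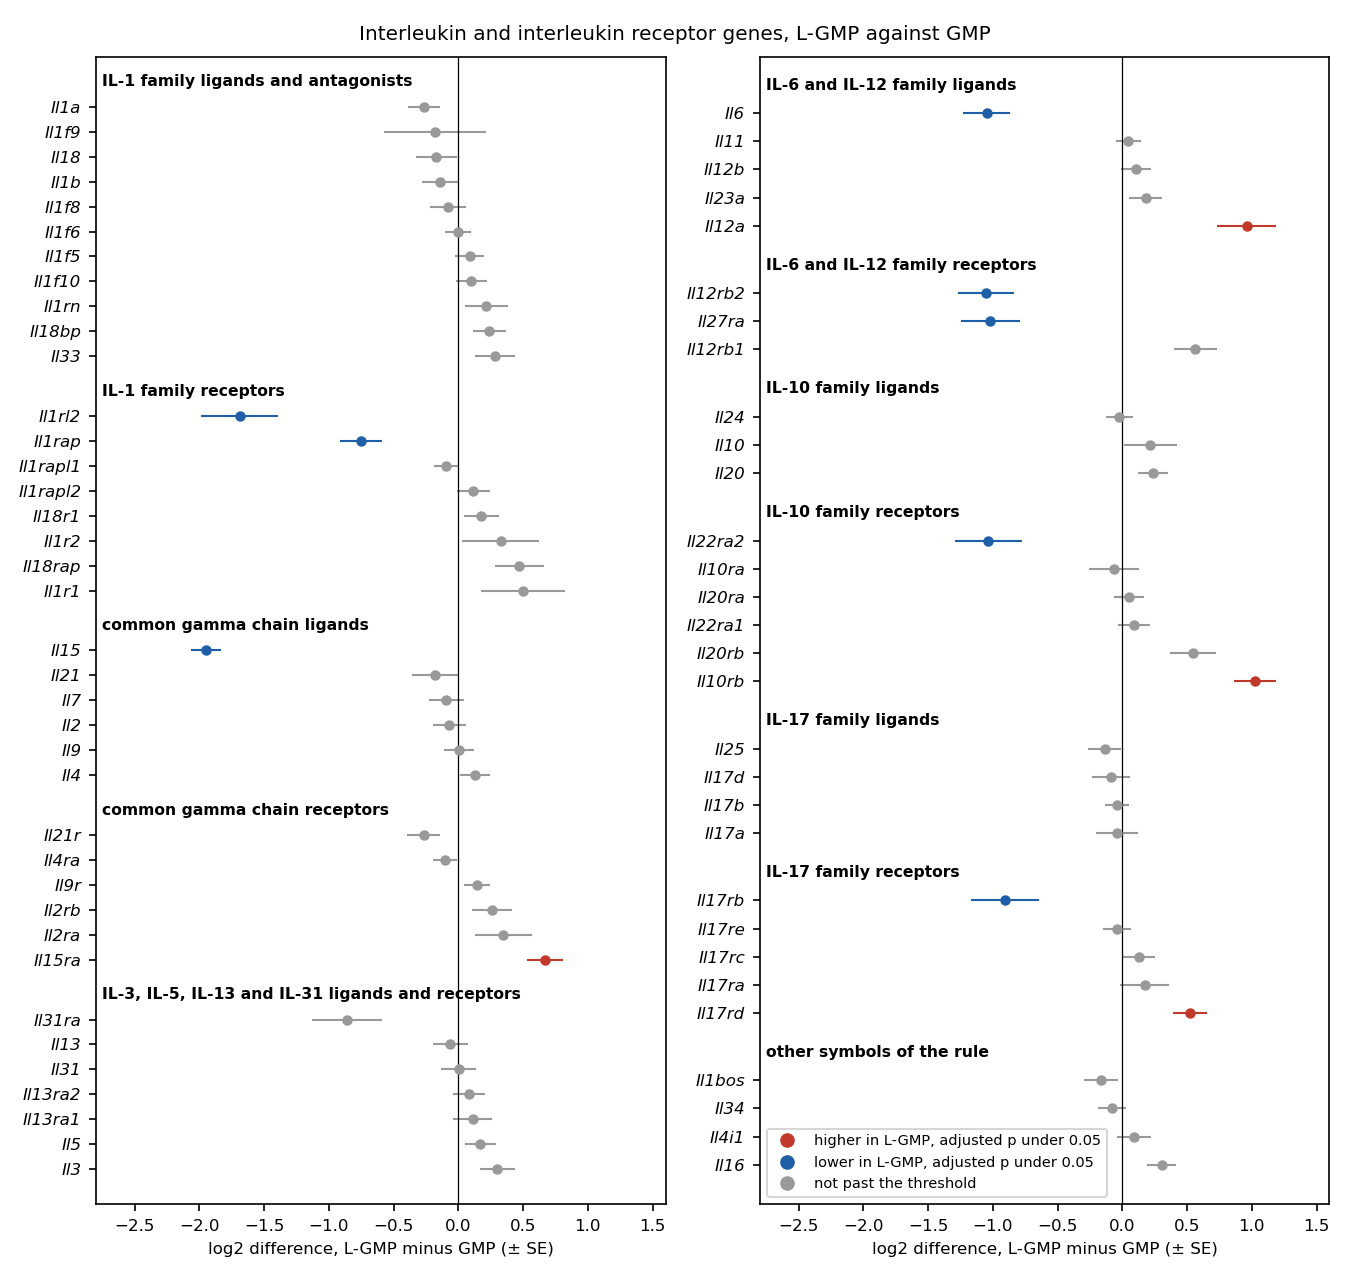
Difference in log2 intensity, L-GMP minus GMP, for each of the 68 genes with the standard error of the fit, arranged by family and role. The 12 genes past the adjusted threshold are coloured, 4 to the right of 0 and 8 to the left, and the ligands of the IL-1, IL-10 and IL-17 families lie close to 0.

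The largest difference was in Il15, the gene of a cytokine that supports natural killer cells and memory T cells. Il15 read 4.57, 4.29, 4.49 and 4.80 in L-GMP replicates A to D, against 6.48, 6.50, 6.49 and 6.48 in GMP replicates A to D. Every L-GMP array lay far below every GMP array, and the GMP arrays were almost identical. Il15 fell by 1.95 (SE 0.12, 3.86-fold lower, limma adjusted p = 1.72e-06), and its change was -2.03 to -1.81 over the alternatives. All of these use its only probe set. Il15ra, whose product binds IL-15 and presents it to neighbouring cells, went the other way. Il15ra read 7.91, 7.75, 7.72 and 8.05 in L-GMPs, against 6.90, 7.38, 7.06 and 7.42 in GMPs. The groups did not overlap, and the difference was 0.67 (SE 0.14, 1.59-fold, limma adjusted p = 0.011). Its second probe set read 8.11, 7.96, 7.69 and 8.01 in L-GMPs, against 7.08, 6.94, 7.0 and 6.85 in GMPs. That probe set was also higher in L-GMPs, by 0.97 (SE 0.12, adjusted p = 0.000475 over all probe sets). The ligand and its private receptor chain therefore changed in opposite directions, and both calls held in all 16 alternatives.

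Both promoter entries of Il15ra are shown because both of its probe sets were higher in L-GMPs. The windows are RefSeq promoters of GRCm38.p6, from 250 bases before to 50 bases after a start, written 5′ to 3′ along the gene. Capitals mark matches, on either strand, to 4 motifs: the interferon response core (GAAA, any 2 bases, GAAA), the STAT palindrome TTCNNNGAA, TGATTNAT, which HOXA9 binds with PBX, and TGACAG, which MEIS factors bind. No marked match overlaps another.
Il15ra, chr2:11705043-11705342, plus strand: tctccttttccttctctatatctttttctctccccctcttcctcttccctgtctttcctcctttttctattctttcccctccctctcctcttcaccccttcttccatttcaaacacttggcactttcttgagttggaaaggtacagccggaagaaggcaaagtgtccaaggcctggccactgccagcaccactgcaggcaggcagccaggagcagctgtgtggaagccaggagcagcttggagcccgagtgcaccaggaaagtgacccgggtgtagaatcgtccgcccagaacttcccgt
Il15ra, chr2:11705462-11705761, plus strand: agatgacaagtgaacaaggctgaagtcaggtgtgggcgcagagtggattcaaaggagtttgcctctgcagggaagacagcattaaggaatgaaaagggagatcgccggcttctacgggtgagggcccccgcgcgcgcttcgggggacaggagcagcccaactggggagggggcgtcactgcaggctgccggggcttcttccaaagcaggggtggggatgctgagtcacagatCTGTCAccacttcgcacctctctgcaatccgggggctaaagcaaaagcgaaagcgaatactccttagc
The second window holds TGACAG on the opposite strand, from 18 bases before the start, and 19.2% of all 32851 windows of this length hold that motif. Promoter entries were found for 52 of the 68 members, in 65 windows. Of these windows 20% hold TGACAG and 9, or 13.8%, the STAT palindrome (8.3% of all windows). TGATTNAT is in 4.62% of them (3.22% of all windows) and the interferon response core in 3.08% (3.44% of all windows). Windows of a gene can overlap, as for Il1rn, so a site can be counted more than once. A match describes the letters only and does not show that a factor binds there.

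The other members that belong to the common gamma chain family showed no difference past the threshold. Il2rg, the gene of the shared chain itself, is not among the members. Il7r, which was set aside, differed by 0.73 and did not pass (limma adjusted p = 0.132). Il2rb, the chain that IL-2 and IL-15 receptors share, averaged 4.30 ± 0.19 in L-GMPs and 4.04 ± 0.28 in GMPs (SD, n = 4 each), a difference of 0.26 with a 95% interval of -0.08 to 0.60. Il4ra, the IL-4 and IL-13 receptor chain, read 7.40 to 7.63 in L-GMPs and 7.58 to 7.71 in GMPs. Its difference was -0.10 (95% interval -0.31 to 0.11), and 0.04 after median centring, so its sign is not settled. The ligands Il2, Il4, Il7, Il9 and Il21 differed by -0.18 to 0.13, and the receptors Il2ra, Il9r and Il21r by -0.27 to 0.35. Il21 and Il9r had both group means under the lower quartile of every array, Il7 that of L-GMPs and Il2ra that of GMPs. A change of RNA level can pass unseen there. Second probe sets of Il2rb, Il2ra and Il21 had the opposite sign (-0.10, -0.15 and 0.20), that of Il7 the same (-0.32), and none passed.

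Both chains of the IL-36 receptor fell. Il1rl2 encodes the chain that binds IL-36, and Il1rap the accessory chain that receptors for IL-1, IL-33 and IL-36 have in common. Il1rl2 read 5.94, 5.0, 4.92 and 5.29 in L-GMPs, against 6.54, 7.49, 6.39 and 7.48 in GMPs. All L-GMP arrays were below all GMP arrays, and GMP replicates B and D were well above A and C. Il1rl2 fell by 1.69 (SE 0.30, 3.22-fold lower, limma adjusted p = 0.00434) in this probe set. Its other probe set read 4.15 to 4.46 in L-GMPs, against 4.41 to 5.03 in GMPs, a change of -0.39 that did not pass over all probe sets (adjusted p = 0.116), and the mean of both changed by -1.04. Il1rap read 5.58, 5.71, 5.42 and 5.95 in L-GMPs, against 6.19, 6.55, 6.18 and 6.74 in GMPs. Here too the groups did not overlap, and GMP replicates B and D were again the high ones. Il1rap fell by 0.75 (SE 0.16, limma adjusted p = 0.0121). With L-GMP replicate B left out along with GMP replicate D its adjusted p was 0.0505. Of its 5 probe sets another fell by 1.31 (SE 0.18, adjusted p = 0.0014), with 4.68, 4.38, 3.84 and 4.62 in L-GMPs against 5.64, 5.81, 5.44 and 5.88 in GMPs. A further one changed by -0.53 and did not pass (adjusted p = 0.133), and the last pair changed by 0.18 and 0.08 at group means below each array's lower quartile, which was 3.65 to 3.75. The mean of all 5 changed by -0.47 (adjusted p = 0.0373).

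The promoters of these chains are shown, marked in the same way, because both genes fell.
Il1rl2, chr1:40324339-40324638, plus strand: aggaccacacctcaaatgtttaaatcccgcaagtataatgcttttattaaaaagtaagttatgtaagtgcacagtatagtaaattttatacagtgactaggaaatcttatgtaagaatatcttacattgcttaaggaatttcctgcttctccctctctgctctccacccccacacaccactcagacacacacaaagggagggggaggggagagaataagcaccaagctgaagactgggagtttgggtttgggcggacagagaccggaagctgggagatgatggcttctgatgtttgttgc
Il1rap, chr16:26581455-26581754, plus strand: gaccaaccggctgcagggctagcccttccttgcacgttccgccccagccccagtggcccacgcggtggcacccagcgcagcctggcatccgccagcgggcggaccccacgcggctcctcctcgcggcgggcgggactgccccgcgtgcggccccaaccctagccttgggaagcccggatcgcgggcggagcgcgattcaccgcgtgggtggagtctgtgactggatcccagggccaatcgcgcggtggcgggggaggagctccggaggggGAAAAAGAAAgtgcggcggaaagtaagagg
Il1rap holds the interferon response core from 20 bases after the start, as 3.44% of all windows do, and the Il1rl2 window holds none of the 4 motifs.

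**Figure D2:**
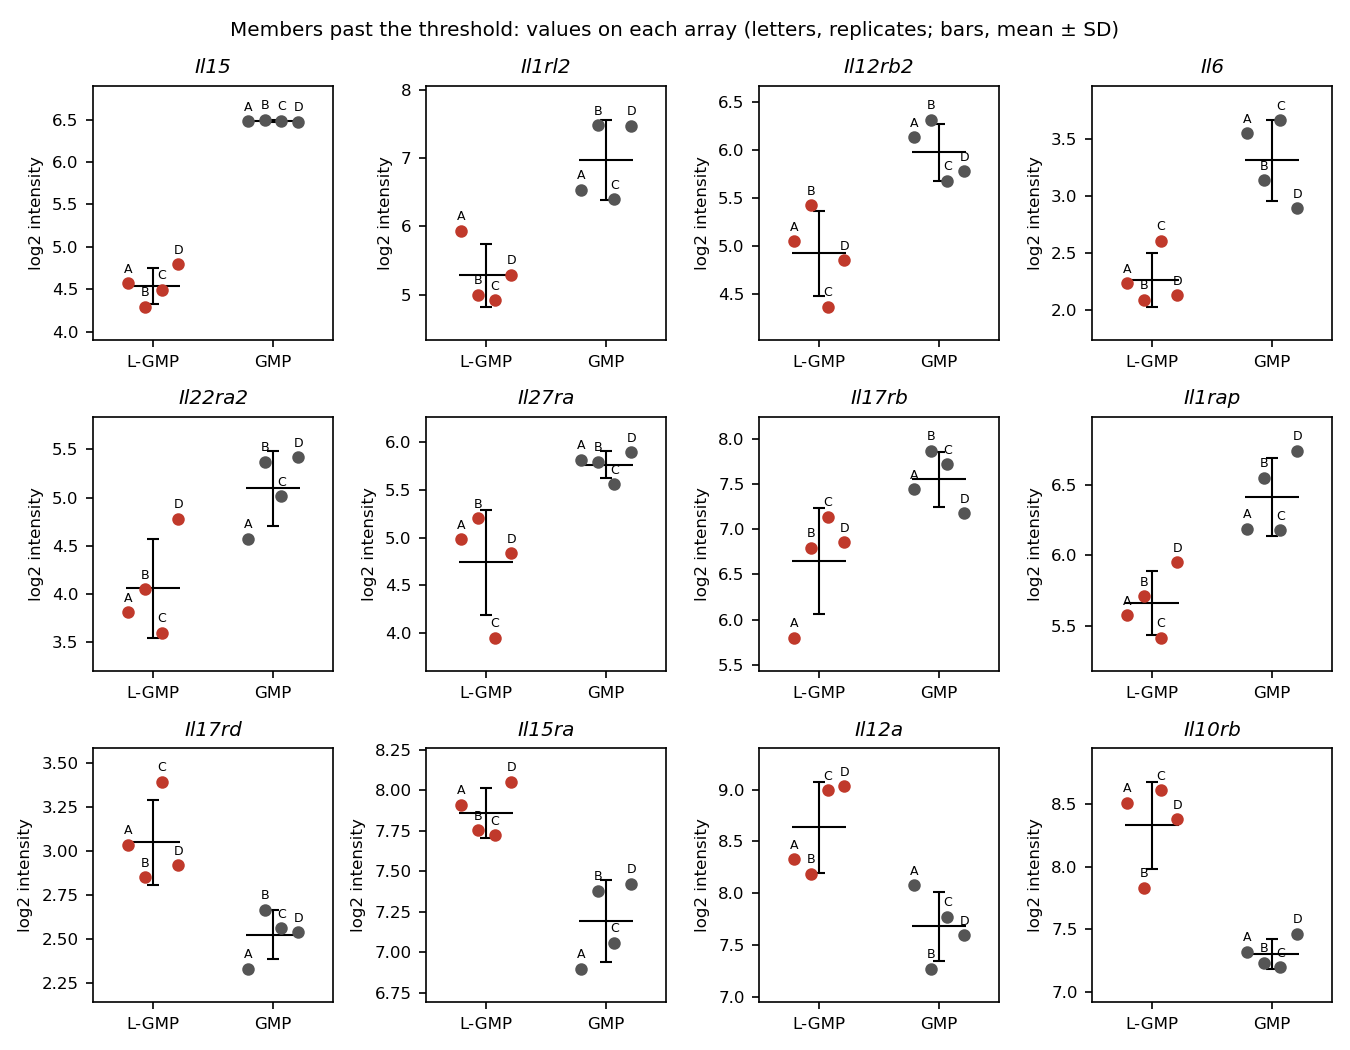
Log2 intensity on each array for the 12 genes past the threshold, ordered from the largest fall to the largest rise, with L-GMP left of GMP, the replicate letter above each point and the mean ± SD as bars. The groups are apart in every panel except Il22ra2, where L-GMP replicate D at 4.78 lies above GMP replicate A at 4.57, and the GMP points of Il15 nearly coincide.

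Other IL-1 family receptors were not called. Il18rap, the accessory chain of the IL-18 receptor, read 7.44, 7.70, 7.22 and 6.77 in L-GMPs, against 6.73, 6.97, 6.55 and 7.01 in GMPs. L-GMP replicate D lay among the GMP arrays while the other L-GMP arrays lay above them. The difference was 0.47 (SE 0.19, limma adjusted p = 0.141), 0.64 without L-GMP replicate D (adjusted p = 0.0293) and 0.61 after median centring (adjusted p = 0.047). The second Il18rap probe set differed by 0.68 (adjusted p = 0.0533 over all probe sets). Il1r1, the signalling receptor for IL-1 and chosen after its values were seen, read 5.54, 6.94, 6.93 and 7.21 in L-GMPs, against 5.76, 6.47, 5.99 and 6.40 in GMPs. L-GMP replicate A was below every other array of either group. The difference of 0.50 did not pass (95% interval -0.22 to 1.22, limma adjusted p = 0.371), and without L-GMP replicate A it was 0.87 (adjusted p = 0.0178). The decoy receptor Il1r2 differed by 0.33, and Il18r1, Il1rapl1 and Il1rapl2 by 0.18, -0.09 and 0.11.

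None of the 11 ligands, antagonists and binding proteins of the IL-1 family passed the threshold. Il1b, the inflammatory cytokine that caspase-1 cleaves, read 5.58, 5.57, 5.56 and 5.08 in L-GMPs, against 5.47, 5.51, 5.52 and 5.86 in GMPs. Apart from replicate D, which was low in L-GMPs and high in GMPs, the arrays of both groups lay between 5.47 and 5.58. The difference was -0.14 with a 95% interval of -0.45 to 0.18, and it turned positive at 0.0017 after median centring and 0.016 after quantile normalization. The IL-36 ligand genes Il1f6, Il1f8 and Il1f9 differed by -0.0032, -0.08 and -0.18, and the IL-36 antagonist Il1f5 by 0.09. Il1f9 was high on L-GMP replicate A alone (6.14, against 4.04 to 4.67 on the other L-GMP arrays and 4.71 to 5.28 in GMPs). The differences of Il1a, Il18, Il33, Il1rn, Il1f10 and Il18bp were between -0.26 and 0.28. Il1a, Il18, Il33, Il1f5, Il1f6 and Il1f8 had group means below the lower quartile of every array on both sides, where a change of RNA level can pass unseen.

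In the IL-12 family, the ligand gene Il12a was higher in L-GMPs, and 2 of the 3 receptor genes among the members were lower. Il12a, which encodes the p35 chain found in IL-12 and IL-35, read 8.33, 8.19, 9.0 and 9.03 in L-GMPs, against 8.08, 7.27, 7.77 and 7.60 in GMPs. The groups came close, at 8.19 in L-GMP replicate B and 8.08 in GMP replicate A, without overlapping. Il12a was higher by 0.96 (SE 0.23, 1.94-fold, limma adjusted p = 0.0203), a call that was lost without L-GMP replicate C (difference 0.84, adjusted p = 0.0558), without GMP replicate B (0.82, adjusted p = 0.063) and without GMP replicate D (0.93, adjusted p = 0.0612). Il12b, the p40 chain that IL-12 and IL-23 share, averaged 5.65 ± 0.19 in L-GMPs and 5.55 ± 0.07 in GMPs (SD, n = 4 each) and did not pass. Il12b differed by 0.10 (95% interval -0.15 to 0.36) and Il23a, the p19 chain of IL-23, by 0.18.

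Il12rb2, the chain through which IL-12 activates STAT4, read 5.05, 5.43, 4.37 and 4.86 in L-GMPs, against 6.14, 6.32, 5.68 and 5.78 in GMPs. The groups were apart, and Il12rb2 fell by 1.05 (SE 0.22, 2.08-fold lower, limma adjusted p = 0.0106), with adjusted p from 0.00141 to 0.0378 over the alternatives. Il27ra, the private chain of the IL-27 receptor, read 4.98, 5.20, 3.95 and 4.83 in L-GMPs, against 5.81, 5.79, 5.55 and 5.89 in GMPs. L-GMP replicate C was the lowest array for both genes. Il27ra fell by 1.02 (SE 0.23, 2.03-fold lower, limma adjusted p = 0.0164), and without GMP replicate D it had a change of -0.98 (adjusted p = 0.0541). Il12rb1, the chain that IL-12 and IL-23 receptors share and the member just outside the threshold, was chosen after its values were seen. It read 5.62, 5.34, 5.14 and 5.0 in L-GMPs, against 4.44, 5.01, 4.52 and 4.87 in GMPs. L-GMP replicate D lay at the level of the highest GMP array. Its difference was 0.56 (SE 0.17, limma adjusted p = 0.0532), and it passed after median centring (0.70, adjusted p = 0.0134), after quantile normalization (0.68, adjusted p = 0.0211), without L-GMP replicate D (0.66, adjusted p = 0.0399) and without GMP replicate B (0.66, adjusted p = 0.0462). It also passed without the dimmest 25% of genes (adjusted p = 0.0474), in the mean of probe sets per gene (adjusted p = 0.0456) and with the trended robust prior (adjusted p = 0.0489), and missed in the other 9 of 16 alternatives.

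The promoter of Il12rb2, the called receptor gene of this family with an entry, is shown marked in the same way.
Il12rb2, chr6:67376139-67376438, minus strand: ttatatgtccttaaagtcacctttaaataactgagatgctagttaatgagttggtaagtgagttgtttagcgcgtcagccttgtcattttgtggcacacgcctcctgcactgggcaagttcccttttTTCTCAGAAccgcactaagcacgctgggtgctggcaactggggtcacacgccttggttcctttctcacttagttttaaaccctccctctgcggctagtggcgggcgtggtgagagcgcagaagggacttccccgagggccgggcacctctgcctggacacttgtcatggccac
It holds TTCNNNGAA from 123 bases before the start, as 8.3% of all windows do. TGATTNAT, found in 3.22% of all windows, is in none of the promoters printed.

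Il6, the gene of a cytokine of acute inflammation, read 2.23, 2.09, 2.61 and 2.13 in L-GMPs, against 3.55, 3.14, 3.66 and 2.90 in GMPs. The groups did not overlap, and Il6 fell by 1.05 (SE 0.18, limma adjusted p = 0.00424). Its L-GMP mean of 2.26 lies under the 10th percentile of every array (2.84 to 2.92) and its GMP mean of 3.31 under their lower quartile, so the size of the difference is uncertain. Il11, a relative of IL-6, differed by 0.05.

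In the IL-10 family the shared chain was the one that was higher. Il10rb forms the second chain of the receptors for IL-10, IL-22 and the interferon lambdas. It read 8.51, 7.83, 8.61 and 8.38 in L-GMPs, against 7.32, 7.23, 7.20 and 7.47 in GMPs. L-GMP replicate B was the lowest of its group and still above all GMP arrays. Il10rb was higher by 1.03 (SE 0.16, 2.04-fold, limma adjusted p = 0.00231), and 0.93 to 1.25 over the alternatives, in all of which it passed. Its other probe set read 8.01, 7.74, 8.21 and 7.53 in L-GMPs, against 7.03, 6.52, 6.70 and 5.79 in GMPs. That difference was 1.36 (SE 0.25, adjusted p = 0.00585 over all probe sets).

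Of the ligand-binding chains that pair with Il10rb, Il10ra and Il22ra1 were not called. The chain that binds the interferon lambdas is not among the members. Il10ra, for IL-10, averaged 5.22 ± 0.36 in L-GMPs and 5.29 ± 0.28 in GMPs (SD, n = 4 each), with differences of -0.27 to -0.06 in its 3 probe sets. Il22ra1, for IL-22, differed by 0.09 (95% interval -0.18 to 0.37). Il22ra2, which encodes a soluble protein that binds and neutralises IL-22, read 3.81, 4.04, 3.60 and 4.78 in L-GMPs, against 4.57, 5.37, 5.01 and 5.42 in GMPs. It is the only one of the 12 called genes whose groups overlapped, through L-GMP replicate D and GMP replicate A. Il22ra2 fell by 1.04 (SE 0.26, limma adjusted p = 0.0266), and the call was lost without L-GMP replicate A (-0.95, adjusted p = 0.0728) or C (-0.88, adjusted p = 0.0689) and without GMP replicate B (-0.94, adjusted p = 0.0821), C (-1.06, adjusted p = 0.0622) or D (-0.93, adjusted p = 0.0832). Il20rb, a chain of the receptors for IL-19, IL-20 and IL-24 that was chosen after its values were seen, differed by 0.54 (SE 0.18, limma adjusted p = 0.0766). It passed after median centring (0.69, adjusted p = 0.0342), after quantile normalization (0.63, adjusted p = 0.047), with array weights (0.60, adjusted p = 0.0274), without L-GMP replicate B (0.65, adjusted p = 0.0403) and without GMP replicate A (0.67, adjusted p = 0.0352). Il20ra, another chain of that family, differed by 0.05, and the ligands Il10, Il20 and Il24 by 0.22, 0.24 and -0.02.

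IL-17 receptor genes changed in both directions, and neither call was firm. Il17rb, which binds IL-25 and IL-17B, read 5.80, 6.79, 7.14 and 6.86 in L-GMPs, against 7.44, 7.87, 7.72 and 7.18 in GMPs. L-GMP replicate A was the lowest array, and L-GMP replicate C and GMP replicate D nearly met. Il17rb fell by 0.90 (SE 0.26, 1.87-fold lower, limma adjusted p = 0.0493), the called member closest to the threshold. Its call was lost when any of 7 arrays was left out, all but L-GMP replicate C, with adjusted p 0.0584 to 0.136 and changes of -1.03 to -0.62. It was also lost after median centring (-0.76, adjusted p = 0.0632). Il17rd, also known as Sef and as an inhibitor of fibroblast growth factor signalling, read 3.04, 2.85, 3.39 and 2.92 in L-GMPs, against 2.33, 2.67, 2.56 and 2.54 in GMPs. All these values lie under the lower quartile of every array. Il17rd was higher by 0.52 (SE 0.13, limma adjusted p = 0.0303), lost its call when any of 5 arrays was left out (L-GMP replicates A and C, GMP replicates A, C and D, with adjusted p 0.061 to 0.0719 and differences of 0.41 to 0.54), and its other probe set differed by 0.23 (adjusted p = 0.286). Il17ra, the chain shared by the family's receptors, read 11.4 to 12.0 in L-GMPs and 11.2 to 12.0 in GMPs, a difference of 0.17 (95% interval -0.24 to 0.59). Il17rc and Il17re differed by 0.13 and -0.04, and the 4 ligands Il17a, Il17b, Il17d and Il25 by -0.14 to -0.04.

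**Figure D3:**
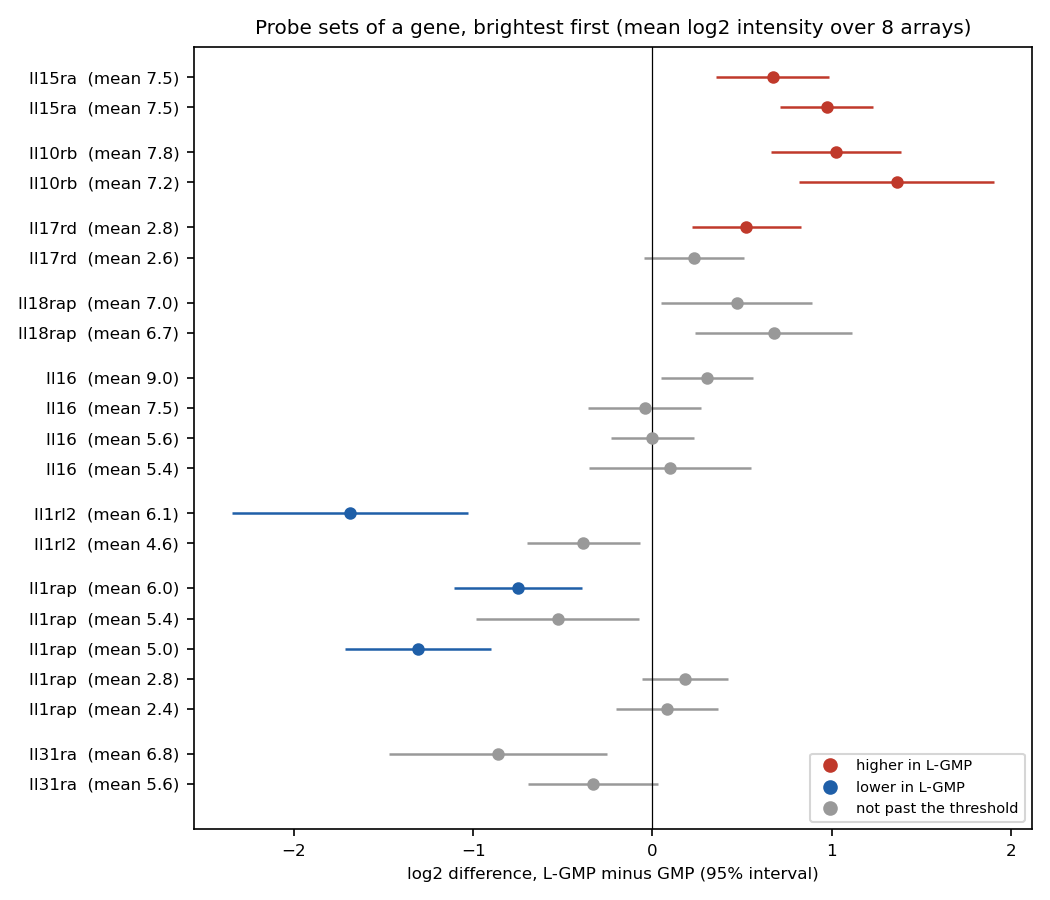
Difference in log2 intensity with its 95% interval for every probe set of 8 genes, ordered by mean intensity within each gene, adjusted over all probe sets. Both probe sets of Il15ra and both of Il10rb are higher in L-GMPs, 2 of 5 for Il1rap and 1 of 2 for Il1rl2 are lower, and the Il18rap and Il31ra probe sets point the same way within each gene without passing.

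Among the remaining genes, Il31ra, the private chain of the IL-31 receptor, read 6.90, 6.77, 6.40 and 5.39 in L-GMPs, against 7.12, 7.26, 7.21 and 7.31 in GMPs. All L-GMP arrays were lower and they spread widely, with L-GMP replicate D lowest, while the GMP arrays lay close together. The difference of -0.86 (SE 0.27) did not pass (limma adjusted p = 0.0678). It passed without L-GMP replicate A (-1.04, adjusted p = 0.0429), B (-0.99, adjusted p = 0.0454) or D (-0.54, adjusted p = 0.035), with array weights (adjusted p = 0.0483) and in the mean of both probe sets (-0.60, adjusted p = 0.0209). Il16, a chemoattractant made as a larger precursor, read 8.95 to 9.32 in L-GMPs and 8.76 to 8.95 in GMPs. The difference of 0.30 did not pass (limma adjusted p = 0.117), passed after median centring (0.44, adjusted p = 0.028), and was -0.04, -0.0013 and 0.10 in the other 3 probe sets. Il3, Il5, Il13 and Il31 differed by -0.06 to 0.30 (Il3 passed after median centring), and Il13ra1 and Il13ra2 by 0.11 and 0.08. Il34, a ligand of the CSF1 receptor, Il4i1, an amino acid oxidase that IL-4 induces, and the antisense gene Il1bos differed by -0.08, 0.09 and -0.16. All 3 had group means under the lower quartile of every array.

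Of the 56 members that were not called, 53 differed by less than 0.5 and 53 had a 95% interval that stayed within 1 unit of 0. The intervals that reached further were those of Il1f9, Il1r1 and Il31ra. Both group means lay under the lower quartile of every array for 24 of the 68 members, Il6 and Il17rd among them.

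**Figure D4:**
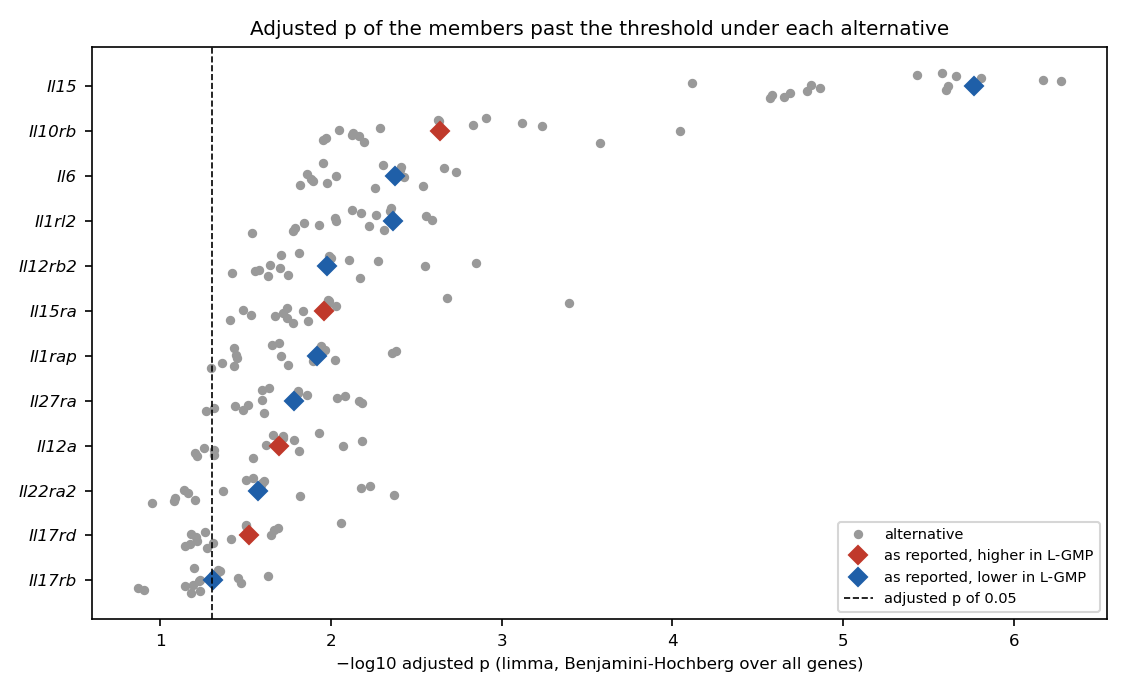
Adjusted p on a −log10 scale for the 12 called genes, as reported (diamonds) and under each alternative (grey points), with the threshold of 0.05 as a dashed line. Il15, Il10rb, Il6, Il1rl2, Il12rb2 and Il15ra stay to the right of the line throughout, and the points of Il22ra2, Il17rd and Il17rb straddle it. Il12a, Il27ra and Il1rap also cross it, with limma adjusted p of up to 0.063, 0.0541 and 0.0505.

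Of 13 partner subunits and ligands outside the rule, 1 was higher and 2 were lower (23.1% called, against 12.1% of all genes), with a median of 0.24, against 0.01 over all genes. Csf2rb, the chain shared by the receptors for IL-3, IL-5 and GM-CSF, was higher by 0.77 (limma adjusted p = 0.00124). Tslp, a cytokine that acts through Il7r, fell by 2.05 (adjusted p = 6e-05), and Il5ra, the private chain of the IL-5 receptor, fell by 1.25 (adjusted p = 0.00888). The L-GMP means of Tslp and Il5ra, 3.46 and 3.54, lie under the lower quartile of every array, so the size of both differences is uncertain. Il6st, the signalling chain for IL-6 and IL-27, and Il6ra differed by 0.72 and 0.74 without passing (adjusted p = 0.0613 and 0.0828), and both passed after median centring. Of 13 measured genes of IL-1 and Toll-like receptor signalling (14 listed, Traf3ip2 of the IL-17 receptors among them), only Peli2 was called. Peli2, a ubiquitin ligase of the IRAK complex, fell by 2.30 (adjusted p = 3.4e-05). That list had 7.69% called and a median of 0.03, and Myd88 differed by 0.03. After quantile normalization Peli1 was also lower, and after median centring Traf3ip2 was higher. Of 14 measured genes of JAK and STAT signalling (15 listed) only Socs2, a feedback inhibitor, was called, higher by 0.81 (adjusted p = 0.033). The GMP mean of Socs2, 3.48, lies under the lower quartile of every array, so the size of this difference is uncertain too. The JAK and STAT list had 7.14% called and a median of -0.14, and Stat4 differed by -0.62 (adjusted p = 0.0892). That median was -8.54e-05 after median centring (0.15 over all genes) and -0.083 after quantile normalization (0.04 over all genes). Of 8 measured genes of the inflammasome, which processes IL-1 beta and IL-18 (10 listed), Pycard, Gsdmd and Aim2 were higher by 0.56, 0.44 and 0.40 (adjusted p = 0.0401, 0.0411 and 0.0342) and none was lower. The list had 37.5% called and a median of 0.46, and 5 of 8 were higher after median centring and 2 of 8 (Aim2 and Naip5) after quantile normalization.

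Markers of other cells differed between the groups in some lists, and their part in the differences above was not tested. The same test called 12.1% of all genes. It called 72.7% of the eosinophil, basophil and mast cell list and 88.9% of the monocyte and macrophage list. The share was 44.4% for the megakaryocyte and erythroid list and 22.2% for the neutrophil list. The T cell, NK cell and innate lymphoid cell list had 11.1% called, the B cell list 0% and the dendritic cell list 16.7%. In the list of eosinophil, basophil and mast cell markers 8 of 11 were lower in L-GMPs (7 after median centring) and none was higher. Ms4a2, the beta chain of the IgE receptor, differed by -4.95 and Prg2, an eosinophil granule protein, by -5.20. The log2 of their summed intensity was 10.03 to 10.9 in L-GMPs and 12.2 to 13.5 in GMPs, with Ccr3 under the lower quartile of every array in both groups. Of 9 megakaryocyte and erythroid markers 4 were lower (Pf4, Itga2b, Vwf and Gata1), with sums of 8.04 to 8.53 in L-GMPs and 9.26 to 11.0 in GMPs. Of 9 monocyte and macrophage markers 7 were higher, among them Cd68 by 2.48 and F13a1 by 1.57, and 1 lower (Cx3cr1, not called in either other scaling), with sums of 13.4 to 13.9 in L-GMPs and 12.4 to 12.6 in GMPs. Of 9 neutrophil markers S100a8 and Cxcr2 were lower (sums 8.56 to 10.7 in L-GMPs and 9.81 to 12.1 in GMPs), and Mmp8 was higher in both other scalings. Of 9 T cell, NK cell and innate lymphoid cell markers 1, Gzmb, was lower (sums 7.68 to 7.92 in L-GMPs and 8.20 to 8.62 in GMPs). The defining markers Cd3e, at 4.06 in L-GMPs and 4.17 in GMPs, and Ncr1, at 2.85 in L-GMPs and 3.05 in GMPs, lay under every array's median (5.24 to 5.49) in both groups. Of the same list Cd8a, at 5.97 in L-GMPs and 5.76 in GMPs, and Cd4, at 5.50 in L-GMPs and 5.57 in GMPs, lay above it, as did Gzmb in GMPs only (4.04 in L-GMPs and 6.99 in GMPs), and Cd2 was higher after median centring. None of 7 B cell markers was called (sums 8.69 to 9.49 in L-GMPs and 8.76 to 8.95 in GMPs), with Cd79a higher after median centring. Of 6 dendritic cell markers only Flt3 was called, as higher, and Cd209a joined it after median centring. Their sums were 9.86 to 11.1 in L-GMPs and 7.64 to 7.99 in GMPs. Flt3 averaged 10.2 in L-GMPs and 6.88 in GMPs. The other 5 had group means of 3.03 to 5.45, so the difference in the sums came mainly from Flt3.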

How the data were processed

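The 8 Affymetrix arrays were grouped by sample title, 4 as L-GMPs and 4 as GMPs. The authors deposited intensities on a linear scale made with RMA, per the submitters' processing notes. Its version and the genome build are not given in the sources used here. The scale was read from the values (3.54 to 29747). The labels name a whole transcript sense assay, while the probe sets read toward the 3' end, so which labelling was used is not settled. No background level or scan date was used. With 4 arrays a group, precision is limited by their number.

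The deposited intensities were converted to log2. Of the 45101 probe sets 64 controls were left out, 34945 others had a single symbol, 932 several and 9160 none. Entrez identifiers matched 34741 to RefSeq and changed 0 symbols. Where a gene had several probe sets, the one with the highest 8-array mean stood for it. The groups were compared with limma 3.58.1 (R 4.3.3, lmFit and eBayes, 2-sided), adjusted over 18193 genes at 0.05, after a check on simulated data. The named genes were the called members, members differing by at least 1, and the brightest of each role group. Il12rb1, Il20rb and Il1r1 were added after their values were seen. The members, lists and promoters were chosen with earlier results of these data known. The alternatives were median centring, quantile normalization, leaving out dim genes, averaging each gene's probe sets, array weights, a robust prior with a trend, a block by replicate letter, and leaving out each array. Whether the letters pair the samples is not known. Deviations of same-lettered arrays from their group means correlated at -0.07 to 0.10 over all probe sets, which cannot settle it.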

Additional observations from a re-analysis of the deposited data

Results flagged for a closer look

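In a group of 4 arrays, 3 values stood far from the other arrays among 46 groups checked for 23 named genes, and chance alone gives about 1 in 20. Il1b on L-GMP replicate D was low at 5.08, against 5.56 to 5.58 on the other L-GMP arrays. Il1b on GMP replicate D was high at 5.86, against 5.47 to 5.52 on the other GMP arrays. Il1r1 on L-GMP replicate A was low at 5.54, against 6.93 to 7.21 on the other L-GMP arrays.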

How the results depend on the processing

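Median centring gave 9 members higher (4 as reported) and a median difference of the members of 0.19 (0.05 as reported), while 17% of all genes were called (12.1% as reported) and 70.1% of those were higher (39.7% as reported). Without the dimmest 25% of genes, which left 35 members, that median was -0.022. Of those members 4 were higher and 7 lower, which is 31.4%, against 16.2% of all genes kept. Leaving out 1 array at a time gave 1411 to 2388 called genes (2193 as reported), 2 to 6 members higher, 5 to 8 lower and a median of 0.02 to 0.06. With GMP replicate D left out along with L-GMP replicate B 5 members were lower. The replicate block gave 1760 called genes, 3 members higher and 8 lower, with Il17rd at adjusted p = 0.055, and it changed no other call among the members. Signs turned positive for Il17b (0.099), Il1b (0.0017), Il24 (0.119) and Il4ra (0.037) after median centring, and for Il17b (0.035), Il1b (0.016) and Il24 (0.057) after quantile normalization. Leaving out 1 array gave Il24 differences of -0.082 (without GMP replicate C) to 0.013 (without L-GMP replicate D), and 0.0092 without GMP replicate B. None of these 4 genes was called in any of these settings. The causes of these changes were not tested. Il10rb, Il12rb2, Il15, Il15ra and Il1rl2 passed in all 16 alternatives, and Il6 in the 15 that kept it.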

Other observations

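GMP replicates shared an order in several receptor genes. In Il1rl2, Il1rap, Il15ra and Il22ra2 both GMP replicates B and D were above both A and C. The values of replicates A to D were 6.54, 7.49, 6.39 and 7.48 for Il1rl2, 6.19, 6.55, 6.18 and 6.74 for Il1rap, 6.90, 7.38, 7.06 and 7.42 for Il15ra, and 4.57, 5.37, 5.01 and 5.42 for Il22ra2. The genes were picked out for this order, and the second Il15ra probe set did not show it (7.08, 6.94, 7.0 and 6.85).

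Il12a and the receptor chain Il12rb2 differed in opposite directions, as did Il15 and Il15ra. The other IL-12 receptor chain, Il12rb1, differed by 0.56 in the direction of Il12a and did not pass (limma adjusted p = 0.0532). Ebi3, the chain that joins the product of Il12a in IL-35, differed by 0.09 (adjusted p = 0.792).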
